A study of Mus musculus with 12 samples.

Results

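The comparison set 3 samples of GFPhigh haematopoietic stem cells (HSCs) from mice carrying an Nras mutation against 3 from wild-type mice, and so used 6 of the 12 samples of the series as its members. They were chosen by title, Nras GFPhigh and wild-type GFPhigh, and the values analysed were those of probe sets with 1 gene symbol, on a log2 scale. The labels give the mutant genotype as NrasG12D/+, a heterozygous allele. All mice, wild-type controls included, drank doxycycline for 6 weeks and were followed for another 12 weeks, and HSCs were then sorted from bone marrow. The labels call GFPhigh cells quiescent and GFP- cells cycling, and the 3 GFP- samples of each genotype shared the model fit. Age, the number of mice in a sample, the promoter behind the GFP label and the way the mutant allele was switched on are not given in the labels. Samples of a group are titled biological replicates.

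HSCs renew themselves and supply every blood lineage, and most of them divide rarely. A GFP label that is switched on by doxycycline is diluted when cells divide after its removal, so bright cells are those that have divided little. Nras encodes a small GTPase that is active when bound to GTP. The G12D substitution impairs GTP hydrolysis and prolongs that state. Active RAS signals through the RAF, MEK and ERK kinases to early-response genes and to feedback inhibitors such as the DUSP phosphatases, and also through PI3K. Cytokine receptors on HSCs act through STAT5 as well, whose target genes include Cish, Socs2 and Pim2.

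Among 12083 genes tested, none passed an adjusted p under 0.05 (limma, Benjamini-Hochberg), a percent called of 0%. Usp27x, a deubiquitinase, had the smallest p of all, with a log2 difference, Nras minus wild-type, of -4.80 ± 0.70 (SE). This SE rests on 1 spread shared by all 12 arrays of the 4 groups, with 3 samples in each group. Lig1, the ligase that joins Okazaki fragments, differed by -3.93 ± 0.78. Gem, a small GTPase that inhibits voltage-gated calcium channels, differed by 2.44 ± 0.53, and the ERK phosphatase gene Dusp6 by 0.96 ± 0.39. Neither gene's groups of 3 overlapped, as in 12.5% of all genes tested. The rule that chose Gem asked for this. Of 17 granulocyte markers, 15 read higher in the Nras samples, most in replicates 1 and 2, with a median log2 difference of 3.01.

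The upstream sequences of Usp27x and Lig1 are shown because these are the lower genes of smallest p in the set named below, and they were chosen after their values were seen. Each is the 250 bases before a start site in RefSeq, build GRCm38.p6, written 5′ to 3′ on the strand of the gene. Capitals mark a match to the STAT-type motif TTCNNNGAA, which reads the same on both strands. Usp27x lies at chrX:7375831-7376080 on the minus strand, and the first of 3 listed Lig1 start sites at chr7:13276925-13277174 on the plus strand.
Usp27x: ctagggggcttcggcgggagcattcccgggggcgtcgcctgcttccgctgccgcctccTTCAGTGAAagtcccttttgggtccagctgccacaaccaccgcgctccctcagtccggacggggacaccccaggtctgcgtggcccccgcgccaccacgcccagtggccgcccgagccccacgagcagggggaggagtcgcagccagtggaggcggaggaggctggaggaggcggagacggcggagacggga
Lig1: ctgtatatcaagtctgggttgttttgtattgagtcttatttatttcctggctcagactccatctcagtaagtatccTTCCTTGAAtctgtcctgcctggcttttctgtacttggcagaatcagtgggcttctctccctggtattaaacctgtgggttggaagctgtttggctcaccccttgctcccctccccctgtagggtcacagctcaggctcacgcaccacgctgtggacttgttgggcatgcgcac
The match begins 192 bases before the start of Usp27x and 174 bases before this start of Lig1. The motif occurred in 7.02% of 32851 such windows of the genome, and in neither of the other two Lig1 windows. The letters TGACGTCA, TGANTCA and CACGTG, searched on both strands as the CRE, AP-1 and E-box motifs, were in none of these windows. They occurred in 1.55%, 6.75% and 6.02% of all windows. A match describes the letters only, and no binding was measured.

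The signals are intensity values in MAS5 units, which the submitters scaled so that the trimmed mean of every array is 500. Array medians ran from 44 to 129.6. An array weight, limma's estimate of how closely an array follows its group, was 0.403 and 0.503 in Nras GFPhigh replicates 1 and 2, 0.522 in wild-type GFPhigh replicate 2 and 0.308 in Nras GFP- replicate 1. These 4 are called the uneven arrays below, against 0.903 or more on the rest. CreX, a hybridisation spike, reached 28340 in the first and 26505 in the second Nras GFPhigh sample, against 15416 in the third and at most 17345 elsewhere. The ratio of 3′ to 5′ Gapdh signal was 7.28, 2.83 and 5.70 in the Nras GFPhigh samples, against 2.57 to 4.48 in the other 9 arrays. Replicate 3 of every group read low for Xist and high for Y-linked Eif2s3y, and replicates 1 and 2 the opposite. Among markers of the sorted cells, Kit read 2228 to 4281, Procr 3408 to 8405, Mecom 6292 to 11336 and Hlf 6053 to 12110 over the 6 GFPhigh arrays. The markers Slamf1 and Fgd5, given below, read lower in Nras samples, by log2 differences of -1.67 and -2.52, Slamf1 with overlapping groups. The proliferation marker Mki67 read up to 10165 in GFPhigh cells.

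At an unadjusted p under 0.05 there were 383 genes reading higher in Nras samples and 619 lower, 3.17% and 5.12% of those tested and 8.29% together. Every count of list members at that p given below stands beside these shares. The smallest adjusted p was 0.153 (limma, Benjamini-Hochberg). It was 0.808 when only the 2 groups compared were fitted, so that the GFP- arrays did not share the spread. Groups of 3 that did not overlap were found for 619 higher and 890 lower genes, 5.12% and 7.37%, together 12.5%. The median log2 difference over all genes, Nras minus wild-type, was -0.09, with 46.1% of genes above 0, and the median standard error (SE) was 0.88. Of the genes tested, 6764 were above the array median in all 6 GFPhigh arrays. Only 5 passed the filter through the 3 Nras GFPhigh arrays alone and 2 through the 3 wild-type ones alone.

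The count of 0 moved when single arrays were left out. Without Nras GFPhigh replicate 3 limma called 17 genes, 4 higher and 13 lower, among them Usp27x, Lig1, Arhgef2 and Chek1 lower and Ifitm3 higher. Without Nras GFPhigh replicate 2 it called 2, both lower, Nrm (log2 difference -6.61) and Trim13 (-6.24), which were named after their values were seen. The remaining arms then hold 2 samples and borrow their spread from the other groups. Without the 4 uneven arrays, which leaves Nras GFPhigh replicate 3 alone against wild-type replicates 1 and 3, the count was 0 and the smallest adjusted p 0.0755. Every value given below without the uneven arrays rests on that 1 Nras sample, which is assumed to vary like the other groups. Alternatives were read for 114 named genes, which are a part of those the rules give. Of these 114, 68 were then smaller by over 1.5 times or had the other sign, and 14 of 35 list medians had the other sign. Leaving out some single array made 45 of the 114 smaller by over 1.5 times or turned them.

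The size of a difference moved with signal. Genes were placed in 10 equal bins by their brightness in the GFP- arrays, whose values do not enter the difference, though they share its estimate of spread and its filter. The brightest bin, from 3155 signal units up, had a median log2 difference of 0.15 with 61.9% of genes above 0. At an unadjusted p under 0.05, 14.8% of it read higher. After quantile normalization, which gives every array the same distribution, that median was -0.08. Bins 4 to 9 had medians between -0.38 and -0.16, and the dimmest bin 0.53. Each list of genes described here therefore stands beside these values, and the part of brightness in single differences was not tested.

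**Figure D1:**
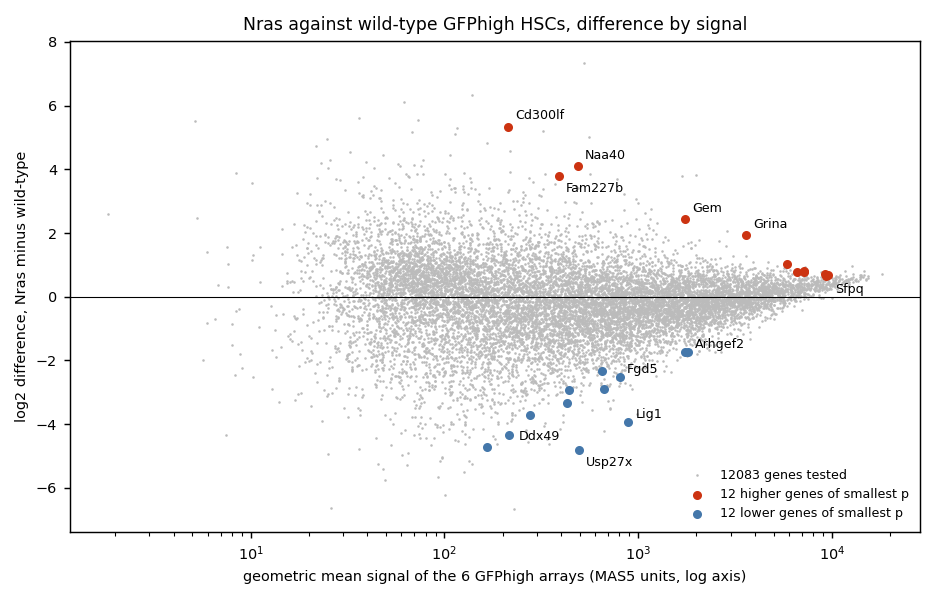
Each point is 1 of 12083 genes: the horizontal axis is the geometric mean MAS5 signal of the 6 GFPhigh arrays on a log scale, and the vertical axis the log2 difference, Nras minus wild-type. Red and blue mark the 12 higher and 12 lower genes of smallest p whose groups do not overlap; the red points fall into bright genes with differences near 0.7 and dimmer genes with differences up to 5.34.

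The 12 higher genes of smallest p whose groups did not overlap were Grina, Pnn, Gem, Irf2bp2, Pfn1, Sfpq, Srsf1, Fam227b, Cd300lf, Naa40, Rbm39 and Mef2c. Their log2 differences ran from 0.66 to 5.34, and each had an adjusted p of 0.409 (limma, Benjamini-Hochberg). Since the rule asked for groups that do not overlap, that separation is not a result about them. Gem read 732, 558 and 1012 in wild-type replicates 1, 2 and 3 and 5387, 2460 and 4996 in the Nras replicates, a log2 difference of 2.44 ± 0.53 (SE). The lowest Nras sample was thus well above the highest wild-type sample, and the difference stayed between 2.23 and 2.80 over the alternatives. In GFP- HSCs Gem read 504, 626 and 199 in wild-type and 5560, 3974 and 3613 in Nras samples, a log2 difference of 3.44 ± 0.53, which there had the smallest p of all genes. The test of the difference between the populations gave -0.997 ± 0.75 with an adjusted p of 0.956 (limma interaction term).

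Grina, a membrane protein of the TMBIM family that protects cells from stress-induced death, read 2371, 949 and 2779 in wild-type and 5120, 6825 and 9913 in Nras samples. Its log2 difference was 1.93 ± 0.40, but its other probe set gave -0.11. Cd300lf, an inhibitory receptor of myeloid cells, read 82, 101 and 4.5 in wild-type and 4891, 213 and 2366 in Nras samples, a log2 difference of 5.34 ± 1.34. Nras replicate 2 was thus far below the other Nras samples. Naa40, which acetylates the N termini of histones H4 and H2A, read 254, 55.1 and 116 against 2646, 2288 and 1351, a log2 difference of 4.10 ± 1.03. All 3 Nras samples lay well above all wild-type samples, although the other probe sets of Naa40 ran down to -0.33. Fam227b read 44.2, 209 and 123 against 720, 4158 and 1018, a log2 difference of 3.80 ± 0.93. Its other probe set gave -2.38, and the mean over both was 0.71.

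The bright members of this set differed by less and more evenly. Sfpq, an RNA-binding protein of splicing and transcription, read 7748, 7986 and 7003 in wild-type and 13262, 12868 and 10353 in Nras samples, a log2 difference of 0.68 ± 0.16. Pnn, a protein of nuclear speckles and desmosomes, read 5487, 5384 and 5348 against 11635, 9440 and 7699, a log2 difference of 0.81 ± 0.17. In both the third Nras sample was the lowest of its group and still above every wild-type sample. The splicing factors Srsf1 and Rbm39 differed by 0.66 ± 0.16 and 0.77 ± 0.20, the actin-binding profilin Pfn1 by 0.78 ± 0.18, the corepressor Irf2bp2 by 0.72 ± 0.16 and the transcription factor Mef2c by 1.01 ± 0.26. Quantile normalization left 6 of the 12 higher genes under 0.5, among them Sfpq at 0.21, Srsf1 at 0.19 and Irf2bp2 at 0.24. Probe sets of 8 of the 9 genes that have several pointed both ways, from -2.57 to 0.81 for Pnn and from -1.61 to 0.77 over the 12 probe sets of Rbm39. The mean over probe sets was therefore below 0 for Pnn, Irf2bp2, Srsf1 and Rbm39.

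The 12 lower genes were Usp27x, Lig1, Fgd5, Ddx49, Arhgef2, Fermt3, Lrrc75a, Fra10ac1, Pus7, Zbtb26, Fam120c and Usp22. Their log2 differences lay between -4.80 and -1.73, and here too the rule asked for groups that do not overlap. Usp27x, a ubiquitin-specific protease known to stabilise the pro-apoptotic protein BIM, read 2330, 4343 and 1739 in wild-type and 57.7, 94.4 and 149 in Nras samples. The difference was -4.80 ± 0.70 with an adjusted p of 0.153 (limma, Benjamini-Hochberg), the smallest of the comparison, and the second probe set gave -2.64. Every Nras sample read far below the lowest wild-type sample. Usp27x lies on the X chromosome, and Xist read 6832, 7968 and 145 in the wild-type and 11481, 10092 and 91.8 in the Nras samples. Within replicate 3, where Xist was low in both genotypes, Usp27x read 1739 against 149.

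Lig1 read 3751, 4261 and 2636 in wild-type and 47.1, 294 and 859 in Nras samples, a log2 difference of -3.93 ± 0.78. The third Nras sample was the highest of its group, and without the uneven arrays the difference was -1.87. Fgd5, an exchange factor for Cdc42 that marks HSCs in the mouse, read 1973, 1741 and 2057 against 219, 265 and 652, a log2 difference of -2.52 ± 0.55. Its wild-type samples lay close together, and all 3 Nras samples were below them. Fermt3, the integrin activator kindlin-3 of blood cells, read 3168, 4298 and 2368 against 1333, 951 and 694, a log2 difference of -1.73 ± 0.40. The difference was -1.98 without the uneven arrays and -0.999 with the mean over its 4 probe sets, which reached -0.20.

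Of the other lower genes, Arhgef2, a microtubule-bound exchange factor for RhoA, read 3226, 3804 and 2893 in wild-type and 794, 709 and 1742 in Nras samples, a log2 difference of -1.73 ± 0.38. Its groups were well separated on this probe set, but another gave 1.06. Pus7, a pseudouridine synthase, read 1797, 1761 and 1919 against 107, 309 and 447, a log2 difference of -2.90 ± 0.69. Usp22, the deubiquitinase of the SAGA complex, read 1003, 1900 and 943 against 79.3, 363 and 140, a log2 difference of -2.93 ± 0.72. Ddx49, an RNA helicase, and Fam120c had 1 outlying wild-type sample each: replicate 2 read 4544 and 4261, against 331 to 609 and 216 to 662 in the other two wild-type samples. Their log2 differences were -4.34 ± 0.95 and -4.72 ± 1.15. Zbtb26, Lrrc75a and Fra10ac1 differed by -3.71 ± 0.90, -3.35 ± 0.77 and -2.33 ± 0.55. None of the 12 lower genes came under 0.5 in size with quantile normalization, and leaving out any 1 array kept all of them over 1. Probe sets of 2 of the 8 lower genes that have several, Arhgef2 and Ddx49, pointed both ways. The second probe set gave -0.06 for Usp22, -0.55 for Fam120c and -0.91 for Zbtb26. Without the uneven arrays the difference of Arhgef2 was -0.81.

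**Figure D2:**
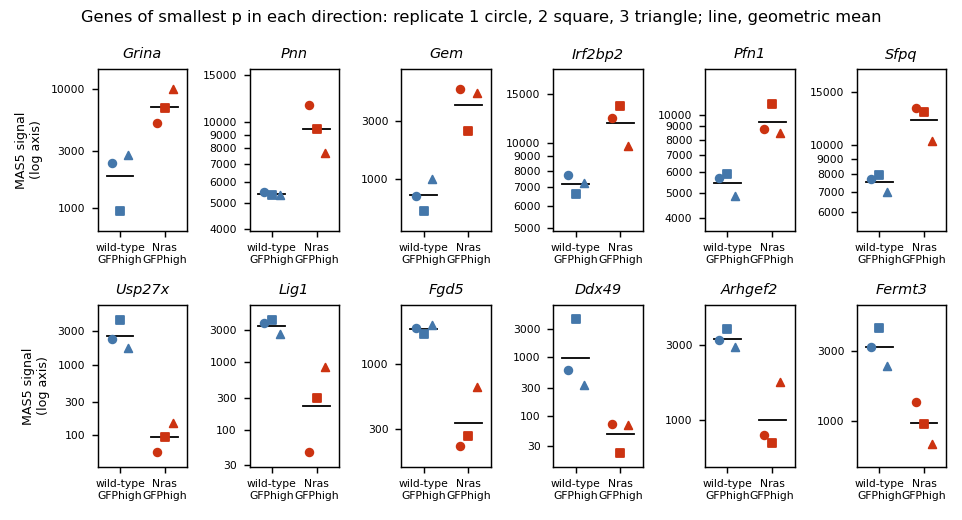
MAS5 signal on a log axis in the 3 wild-type (blue) and 3 Nras (red) GFPhigh samples for the 6 higher and 6 lower genes of smallest p among those named; circles, squares and triangles are replicates 1, 2 and 3, and the black line is the geometric mean. Groups do not overlap in any panel, because the rule chose genes on that; Usp27x has the widest gap, with Nras samples at 57.7 to 149 against 1739 to 4343.

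Nras itself read 2415, 1250 and 3374 in wild-type and 3004, 2410 and 4275 in Nras samples, a log2 difference of 0.53 ± 0.36. The groups overlapped, and the probe set does not tell the mutant allele from the normal one, so it does not check the genotype. Among 28 tested RAS proteins and regulators, 10 read higher and 18 lower, and the median log2 difference was -0.30 against -0.09 over all genes. Of the 28, 1 belongs to the brightest bin, and bins 4 to 9 had medians between -0.38 and -0.16 over all their genes. At an unadjusted p under 0.05, 1 of the 28 read higher and 3 lower, beside 3.17% and 5.12% of all genes tested. The exchange factor Sos2 read 752, 2133 and 730 in wild-type and 166, 405 and 430 in Nras samples, a log2 difference of -1.78 ± 0.73. Its groups did not overlap. Rras2, a RAS-related GTPase, differed by -3.93 ± 1.63 with 1 Nras sample at 436, level with wild-type, and the GTPase-activating protein Rasal3 by -2.88 ± 1.31. The second probe set of Rras2 gave 0.10, and Rasal3 differed by -0.17 without the uneven arrays. The exchange factor Rasgrf1 was the member reading higher at an unadjusted p under 0.05, by 2.29 ± 0.95. Rasgrf1 read 89.5, 53.1 and 70.4 in wild-type and 83.3, 1295 and 363 in Nras samples, so its groups overlapped. Its probe sets ran from -0.33 to 2.29. The list's median stayed below 0 under all 21 alternatives and was -0.16 without the uneven arrays. In GFP- HSCs it was -0.35.

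Of 22 kinases and effectors of the RAF-MEK-ERK branch, 10 read higher and 12 lower, with a median of -0.15. The median turned to 0.30 without the uneven arrays and to 0.03 with only replicates 1 and 2. Srf, the transcription factor of serum response elements, read 2037, 931 and 1937 in wild-type and 5131, 2206 and 3206 in Nras samples, a log2 difference of 1.10 ± 0.41. Every Nras sample was above every wild-type sample, but the second Srf probe set gave -0.24. The GTPase Ralb read 545, 1492 and 421 against 33.1, 78.7 and 269, a log2 difference of -2.98 ± 1.10, again with no overlap. The RAS-association proteins Rassf1 and Rassf2 differed by -1.77 ± 0.73 and -1.02 ± 0.67, and Rassf1 by 0.29 without the uneven arrays.

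ERK feedback and output genes were split: 14 of 24 read higher and 10 lower, with a median of 0.14. At an unadjusted p under 0.05, 2 read higher and 3 lower. Dusp6, the phosphatase that switches ERK off in the cytoplasm, read 1100, 1265 and 1247 in wild-type and 1985, 2074 and 3086 in Nras samples. The log2 difference was 0.96 ± 0.39 with an adjusted p of 0.566 (limma, Benjamini-Hochberg), and it lay between 0.76 and 1.40 over the alternatives. All 3 Nras samples were above all wild-type samples. In GFP- HSCs Dusp6 differed by 0.54 ± 0.39 in the same direction.

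Egr1, an early-response transcription factor, read 8396, 7754 and 9265 in wild-type and 18004, 11024 and 10140 in Nras samples, a log2 difference of 0.58 ± 0.25. Nras replicate 1 was far above the others. The difference was 0.09 with quantile normalization. Dusp4, the nuclear relative of Dusp6, read 1720, 732 and 1053 in wild-type and 142, 156 and 801 in Nras samples, a log2 difference of -2.08 ± 0.85. Here the third Nras sample overlapped wild-type, and the difference was -0.75 without the uneven arrays. Fosl2, a FOS-related AP-1 subunit, read 1544, 1401 and 1039 against 646, 362 and 314, a log2 difference of -1.65 ± 0.59, and its groups were apart. The feedback inhibitors Spry2 and Spred1 differed by -0.87 ± 0.58 and 0.22 ± 0.49, and the ETS factor Etv5 by -0.94 ± 0.73. Spred1 turned to -0.36 and Etv5 to 0.41 with the mean over probe sets. The ERK-responsive cyclin Ccnd1 read 2643, 2499 and 2554 in Nras samples, inside the wild-type range of 1633 to 3173.

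STAT5 pathway genes gave a median of 0.27, with 10 of 17 higher and 7 lower, and the median was -0.43 without the uneven arrays. Stat5a read 2760, 2716 and 3040 in wild-type and 1216, 2496 and 1786 in Nras samples, a log2 difference of -0.69 ± 0.31. All Nras samples were below all wild-type samples. The second Stat5a probe set gave 0.16, however, and the mean over both was -0.27. Pim2, a survival kinase induced by STAT5, read 1760, 191 and 997 against 36.4, 84.4 and 167, a log2 difference of -3.12 ± 1.01. The groups did not overlap, although wild-type replicate 2 was near the highest Nras sample. The feedback inhibitor Cish read 364, 497 and 292 against 20.7, 240 and 219, a log2 difference of -1.87 ± 1.12. Socs2, another feedback inhibitor, read 1984, 804 and 794 in wild-type and 1019, 172 and 25 in Nras samples, a log2 difference of -2.73 ± 1.40, and its groups overlapped. In GFP- HSCs Socs2 also read lower, by -3.83 ± 1.40.

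The list also held members reading higher, the direction of 10 of its 17 genes and of its median. Ccnd2, the D-type cyclin that STAT5 and MYC induce, read 8145, 6975 and 6389 in wild-type and 12706, 8617 and 9031 in Nras samples, a log2 difference of 0.48 ± 0.19. The groups did not overlap, and the difference was 0.08 with quantile normalization. Bcl2l1, the gene of the survival protein BCL-XL, read 787, 39.4 and 843 against 1141, 892 and 1350, a log2 difference of 1.90 ± 1.03. Wild-type replicate 2 alone was low, and without that array the difference was 0.45. Pim1 differed by -0.04 ± 0.37. Il2ra, the interleukin 2 receptor chain, read 32.8, 21.4 and 37.9 in wild-type and 384, 1289 and 24.6 in Nras samples.

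**Figure D3:**
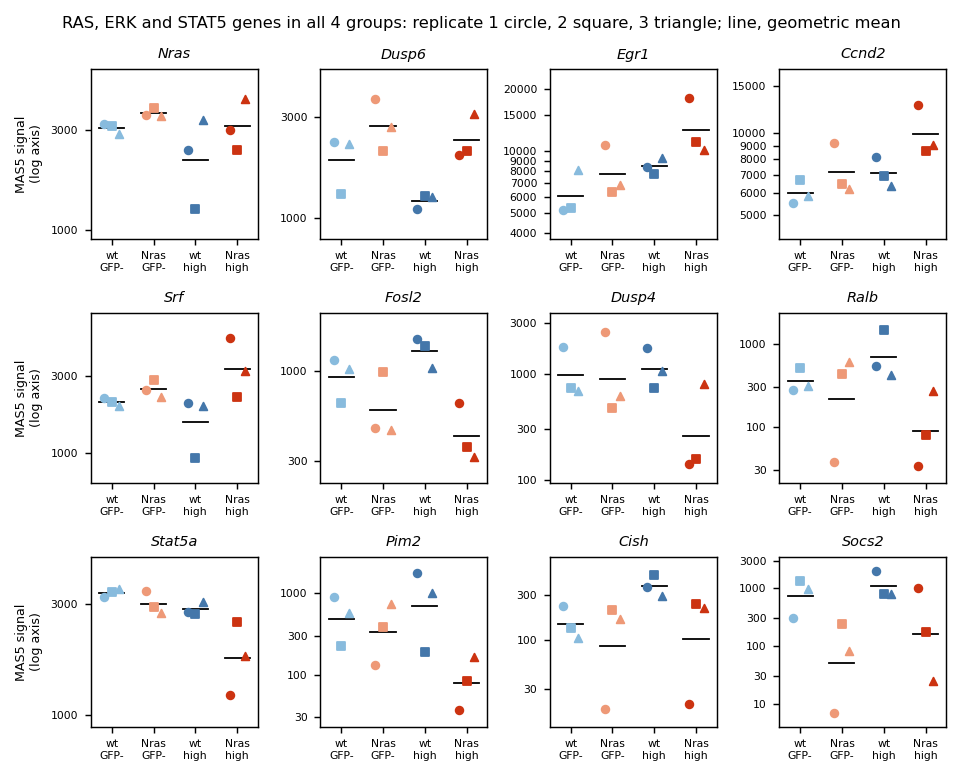
MAS5 signal on a log axis of 12 RAS, ERK and STAT5 genes in the 4 groups, wild-type and Nras GFP- (light) and wild-type and Nras GFPhigh (dark), 3 samples each; circles, squares and triangles are replicates 1, 2 and 3 and the line is the geometric mean. In GFPhigh cells Dusp6, Egr1, Ccnd2 and Srf read higher and Fosl2, Ralb, Stat5a, Pim2 and Cish lower in all 3 Nras samples, while Nras, Dusp4 and Socs2 overlap.

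PI3K, AKT, mTOR and FOXO genes were split evenly, 14 of 27 higher and 13 lower, with a median of 0.01. Pik3cd, the PI3K catalytic subunit of white blood cells, read 1577, 1567 and 1047 in wild-type and 230, 690 and 289 in Nras samples, a log2 difference of -1.94 ± 0.67. Its groups did not overlap, but its probe sets ran from -1.94 to 2.57. The MYC network and ribosome biogenesis list had 13 of 32 genes higher and a median of -0.15. Npm1, the abundant nucleolar chaperone, differed by 0.48 ± 0.17, or -0.09 with quantile normalization, and the MYC antagonist Mxd4 by -2.37 ± 0.87. The 4 probe sets of Mxd4 ran from -4.20 to 0.69. Its difference was -0.73 without the uneven arrays and -0.04 without probe sets that match several transcripts. Myc itself read 2294, 1978 and 2022 in Nras samples, within the wild-type range of 1876 to 2591. Receptors of cytokines and growth factors had 14 of 32 genes higher and a median of -0.17. Il17ra read 7726, 7685 and 6375 in wild-type and 9687, 10505 and 9096 in Nras samples, a log2 difference of 0.43 ± 0.17. Its second probe set gave -0.38, and the difference was 0.02 with quantile normalization.

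Genes of the cell cycle were split as well. Of 30 G1/S and replication genes, 16 read higher and 14 lower, with a median of 0.06. Besides Lig1 these held Ccna2, the S-phase cyclin, at 2483, 120 and 638 in wild-type and 1701, 4409 and 1998 in Nras samples, a log2 difference of 2.10 ± 0.84 with overlapping groups. The replication clamp Pcna differed by 0.32 ± 0.14, or by 0.00 with quantile normalization. The helicase subunit Mcm7 differed by -0.94 ± 0.42, resting on 1077 in Nras replicate 1 against 3662 and 4856 in the other two. D-type cyclins, CDK4/6 and CDK inhibitors gave 9 of 18 higher and a median of 0.03. Cdk2 differed by -1.54 ± 0.81 and the retinoblastoma gene Rb1 by 1.29 ± 0.70, each with groups apart. The second probe set gave -0.72 for Cdk2 and -1.01 for Rb1. The CDK inhibitors Cdkn1a and Cdkn1c differed by 1.37 ± 1.41 and -0.19 ± 0.69, and Cdk6 by 0.50 ± 0.54.

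Mitotic genes had a higher median, 0.75, with 19 of 29 higher and 10 lower, and at an unadjusted p under 0.05 there were 1 higher and 2 lower. Mki67 read 4041, 51.6 and 2090 in wild-type and 5951, 10165 and 2206 in Nras samples, a log2 difference of 2.75 ± 1.19. The groups overlapped, and the difference was -0.40 without the uneven arrays, which include wild-type replicate 2. Foxm1, the transcription factor of mitotic genes, read 15.4, 23.1 and 12.2 against 37.3, 824 and 31.1, so that 1 Nras sample carried its log2 difference of 2.59 ± 1.24. Ndc80 of the kinetochore read 250, 328 and 148 against 9.3, 10.1 and 112, a log2 difference of -3.39 ± 1.11. It was -1.29 with 100 signal units added and -0.78 without the uneven arrays. The spindle protein Tpx2 differed by -3.37 ± 1.42 with overlapping groups. With the mean over its 4 probe sets, which reached 0.89, Tpx2 differed by -0.71. The median of the list was 0.12 without wild-type GFPhigh replicate 2. It was 1.05 without wild-type GFPhigh replicate 1.

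DNA repair genes were near the middle of all genes, 14 of 31 higher with a median of -0.07. At an unadjusted p under 0.05, 1 read higher and 4 lower. Besides Lig1 these were Chek1, the checkpoint kinase, at 889, 401 and 229 in wild-type and 14.3, 8.2 and 173 in Nras samples, Polb and Msh6. The log2 difference of Chek1 was -3.99 ± 1.03 and its groups did not overlap. It was -1.38 without the uneven arrays, and the 5 probe sets of Chek1 ran from -3.99 to 0.41. Polb, the base-excision polymerase, read 1016, 1333 and 667 against 202, 256 and 219, a log2 difference of -2.11 ± 0.66. The 3 Nras samples lay close together below all wild-type samples, and the difference was -1.91 without the uneven arrays. Its 4 probe sets ran from -2.11 to 1.68, however, and their mean gave -0.34. The mismatch repair gene Msh6 differed by -1.04 ± 0.41, or by -0.03 without the uneven arrays.

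Genes of HSC identity and self-renewal had a median of 0.03, with 17 of 32 higher. At an unadjusted p under 0.05, 3 read higher and 2 lower, beside 3.17% and 5.12% of all genes tested. Hlf, a transcription factor of HSC self-renewal, read 6053, 7004 and 6398 in wild-type and 10196, 12110 and 8472 in Nras samples, a log2 difference of 0.65 ± 0.22. Every Nras sample was above every wild-type sample, and the difference was 0.23 with quantile normalization. The second Hlf probe set gave -0.41, and the mean over both was 0.12. The transcription factor Lmo2 and the growth factor Angpt1 differed by 0.39 ± 0.13 and 0.39 ± 0.15, or by -0.14 and -0.02 with quantile normalization. Fgd5 read lower, as above. Among surface markers Slamf1, the CD150 used to sort HSCs, read 898, 3095 and 1595 against 989, 155 and 895, a log2 difference of -1.67 ± 0.89. Its groups overlapped, and its probe sets ran from -3.56 to 1.96. Kit differed by 0.04 ± 0.29, Procr by 0.19 ± 0.36 and Mecom by 0.20 ± 0.24.

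Regulators of HSC quiescence had 14 of 33 members higher and a median of -0.06. Cited2, a transcriptional coregulator needed to maintain HSCs, read 5526, 6341 and 4846 in wild-type and 1674, 2669 and 3728 in Nras samples, a log2 difference of -1.12 ± 0.39. All Nras samples were below all wild-type samples. The second Cited2 probe set gave 0.69, however, and the mean over both was -0.21. The Krüppel-like factor Klf6 read 5270, 5527 and 5034 against 10411, 7766 and 5817, a log2 difference of 0.56 ± 0.24. The repressor Gfi1 differed by -0.05 ± 0.81. Immediate early genes, which overlap these lists in Egr1 and Klf6, had 18 of 24 members higher and a median of 0.57. That list's median was 1.10 above the mean of the 6 arrays in Nras replicate 1, but -0.23 and 0.02 in Nras replicates 2 and 3, against -0.43 to 0.24 in wild-type samples. Without the uneven arrays its median log2 difference was 0.18.

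Genes of cytoplasmic ribosomal proteins read higher in 20 of 24 cases, 14 of them and no lower gene at an unadjusted p under 0.05, with a median of 0.43. Rpl11 read 9368, 9524 and 7713 in wild-type and 13788, 15818 and 11372 in Nras samples, a log2 difference of 0.62 ± 0.17. Its groups did not overlap. Rpl4 and Rps14 differed by 0.56 ± 0.16 and 0.47 ± 0.14. Of the 24 genes, 22 belong to the brightest bin, where the median over all genes was 0.15. In that bin 14.8% of all genes read higher at an unadjusted p under 0.05, and 3.17% of all genes tested did. With quantile normalization the list's median turned to -0.04, with 6 of 24 higher, and Rps14 turned to -0.08. Within replicate 3 the list's median difference was 0.22.

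Subunits of oxidative phosphorylation had 22 of 32 members higher and a median of 0.27, or 0.02 with quantile normalization and -0.03 without Nras GFPhigh replicate 2. Cox5b of complex IV read 6098, 4973 and 5678 in wild-type and 9210, 15153 and 6720 in Nras samples, a log2 difference of 0.82 ± 0.26. The groups did not overlap, and Nras replicate 2 stood above the rest. Uqcrc2 of complex III read 3242, 1647 and 2513 against 4509, 5505 and 3935, a log2 difference of 0.95 ± 0.31, and 0.83 with quantile normalization. The ATP synthase subunit Atp5a1 differed by 0.56 ± 0.19, or by -0.07 with quantile normalization, and cytochrome c, Cycs, by 0.90 ± 0.38.

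Genes of glycolysis and the hypoxia response read lower in 18 of 26 cases, with a median of -0.31 that stayed below 0 under all 21 alternatives. Of the 26, 9 belong to the brightest bin, where the median over all genes was 0.15, and bins 4 to 9 had medians between -0.38 and -0.16. At an unadjusted p under 0.05 there were 3 lower and no higher members. Slc2a3, a glucose transporter, read 4728, 3519 and 3483 in wild-type and 658, 2016 and 2446 in Nras samples, a log2 difference of -1.39 ± 0.45. All Nras samples were below all wild-type samples. Hk1, the hexokinase that phosphorylates glucose at the start of the pathway, read 887, 3146 and 751 against 436, 296 and 580, a log2 difference of -1.60 ± 0.64. Tpi1 differed by -0.64 ± 0.29. The aldolase gene Aldoa read the other way, at 6332, 5303 and 5526 in wild-type and 10451, 10022 and 5139 in Nras samples, a log2 difference of 0.51 ± 0.24, and all 5 of its probe sets were above 0. The list's level, taken as the median of its members against their mean over the 6 arrays, was 0.28, 0.28 and 0.09 in wild-type samples and -0.29, -0.04 and -0.24 in Nras samples. The groups therefore did not overlap for this list, and within replicate 3 the median difference was -0.35, against -0.05 over all genes.

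**Figure D4:**
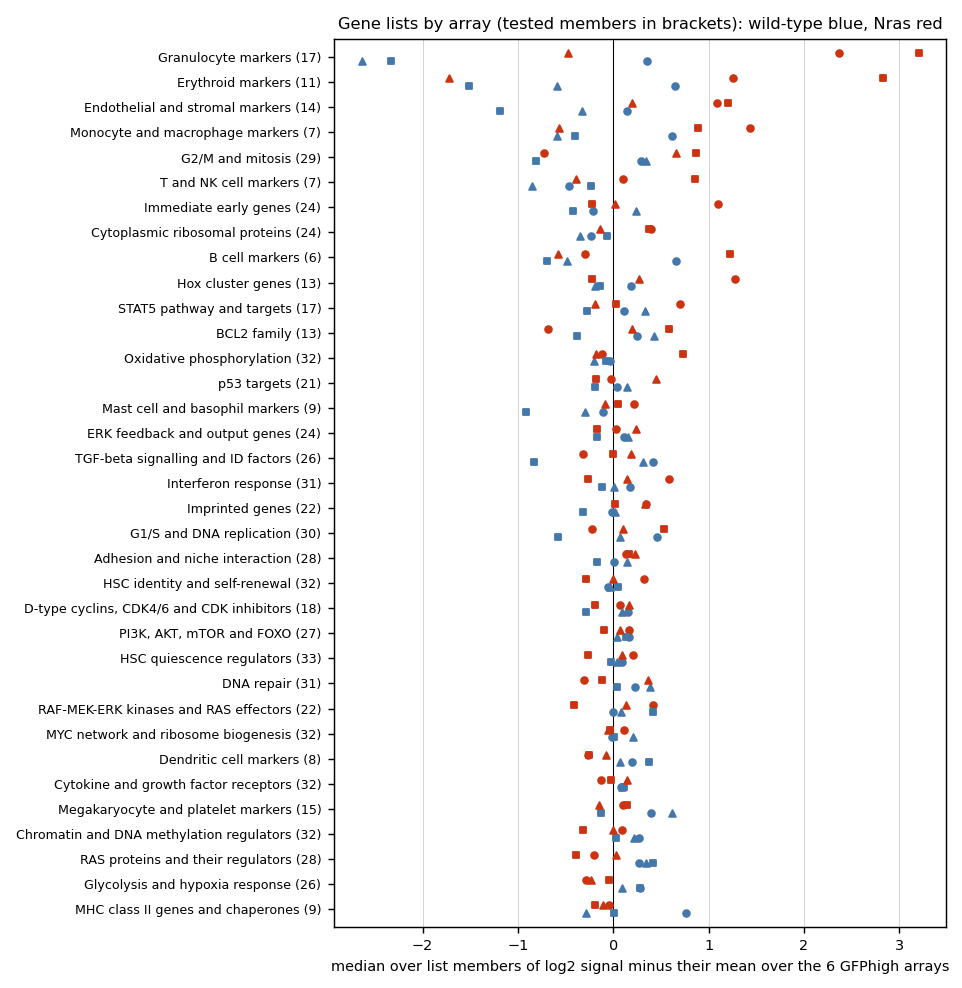
For each of 35 gene lists, ordered by median log2 difference with the number of tested members in brackets, the horizontal axis is the median over its members of log2 signal minus their mean over the 6 GFPhigh arrays. Blue symbols are wild-type and red symbols Nras samples, and circles, squares and triangles are replicates 1, 2 and 3. Groups do not overlap in 6 lists, among them glycolysis (Nras lower) and endothelial and stromal markers (Nras higher), and granulocyte markers span the widest range over the 6 samples.

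The level of a list, measured as in that plot, did not overlap between the groups in 6 of 35 lists, beside 12.5% of single genes. So small a count is not read as a result about these lists. It was higher in Nras samples for imprinted genes, mast cell and basophil markers and endothelial and stromal markers, and lower for RAS proteins and regulators, glycolysis, and dendritic cell markers. The gap for imprinted genes was between 0.0192 in the highest wild-type and 0.0201 in the lowest Nras sample. No list held a gene past the threshold.

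Markers of mature blood cells and stroma were read next, since a sort can carry such cells or their RNA. In these bulk samples more cells of a type and more RNA per cell cannot be told apart. Granulocyte markers read higher in 15 of 17 tested cases, with a median of 3.01 and an SD of 1.79 between samples of a group. At an unadjusted p under 0.05, 7 read higher and 1 lower, beside 3.17% and 5.12% of all genes tested. The lactoferrin gene Ltf read 708, 31.5 and 41.2 in wild-type and 5348, 6600 and 903 in Nras samples, a log2 difference of 5.03 ± 1.63. Ngp, another granule protein, read 386, 11.5 and 33.9 against 1659, 8790 and 502, a log2 difference of 5.19 ± 1.60. In both genes the groups did not overlap, and the highest wild-type sample, replicate 1, came near the lowest Nras sample, replicate 3. Camp, the cathelicidin gene, differed by 3.86 ± 1.24 and the neutrophil surface protein Cd177 by 5.62 ± 1.22. Cd177 read 8.7, 11.3 and 1.4 in wild-type and 182, 967 and 94.1 in Nras samples. It was above the array median in the 3 Nras GFPhigh arrays alone and was tested only through them, so its size rests on wild-type signals near background and was 1.86 with 100 signal units added.

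The signals of 19 granulocyte markers on the array summed to 15201, 1559 and 3259 in wild-type GFPhigh samples and to 53096, 73518 and 10670 in Nras GFPhigh samples. In GFP- cells they summed to 2765 to 15589 in wild-type and 5141 to 9606 in Nras samples. Of the 19, 18, 18 and 10 were above the array median in the Nras GFPhigh samples and 13, 5 and 6 in wild-type ones. Without the uneven arrays, 2 of which are Nras GFPhigh replicates 1 and 2, the list's median was -0.02, though Ltf and Ngp still differed by 2.40 and 2.13. In GFP- HSCs the list's median was -1.53.

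Endothelial and stromal markers read higher in 11 of 14 tested cases, with a median of 0.89, or 0.44 without the uneven arrays. Sparc, a matrix protein, read 3.6, 12.7 and 9.0 in wild-type and 1180, 931 and 128 in Nras samples, a log2 difference of 6.13 ± 1.20. The niche chemokine Cxcl12 read 21.6, 49.3 and 167 against 1412, 602 and 701, a log2 difference of 3.90 ± 1.07. Neither gene's groups overlapped, and Sparc lay below the array median in all 3 wild-type samples. With 100 signal units added before the log, which damps low signals, the differences were 2.63 and 2.49. Kdr, the VEGF receptor of endothelium, read 81.1, 16.6 and 226 against 1488, 1329 and 163, and differed by 0.27 without the uneven arrays. The summed signal of 23 such markers was 5222 to 8623 in wild-type and 8695 to 14422 in Nras GFPhigh samples, with 9 of 23 above the array median in every wild-type and 15, 15 and 10 in the Nras samples.

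Medians of the markers of other lineages were nearer 0, or below it, without the uneven arrays. Erythroid markers had a median of 1.70, with 9 of 11 higher, and -1.21 without the uneven arrays. Slc4a1, the anion exchanger of red cells, read 738, 39.8 and 14.7 in wild-type and 6854, 3918 and 37.2 in Nras samples. Of the monocyte and macrophage markers 5 of 7 read higher, with a median of 0.82, and -0.13 without them, which was the value of Lyz2, the lysozyme gene. Fcgr3, an IgG receptor, read 77.6, 50.9 and 23.2 in wild-type and 1680, 453 and 53 in Nras samples. B cell markers had 5 of 6 higher and a median of 0.35, or -0.43 without the uneven arrays, and T and NK cell markers 6 of 7 and 0.71, or 0.17. Vpreb1, of the pre-B cell receptor, differed by 3.18 ± 1.54. The part of other cells, or of these arrays, in the other differences was not tested.

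**Figure D5:**
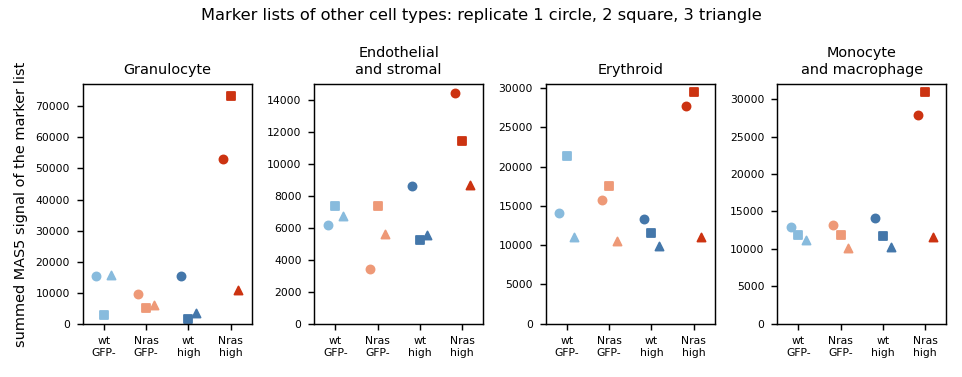
Summed MAS5 signal of the granulocyte, endothelial and stromal, erythroid, and monocyte and macrophage marker lists, from 0, in the 3 samples of each of the 4 groups; circles, squares and triangles are replicates 1, 2 and 3. Nras GFPhigh replicates 1 and 2 stand above all other samples in all 4 panels, with granulocyte sums of 53096 and 73518, while replicate 3 lies at 10670.

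Megakaryocyte and platelet markers had 6 of 15 members higher and a median of -0.24. Tubb1, the platelet tubulin, read 236, 1697 and 37.8 in wild-type and 36.6, 36.5 and 8.7 in Nras samples. Mast cell and basophil markers had 7 of 9 higher and a median of 0.20. Fcer1a, the alpha chain of the IgE receptor, read 0.9, 0.6 and 0.8 in wild-type and 258, 138 and 1.2 in Nras samples, so that only Nras replicates 1 and 2 carried a signal. The steroid enzyme gene Cyp11a1 differed by -2.40 ± 0.98. Dendritic cell markers had 4 of 8 higher and a median of -0.16, which turned to 0.05 with quantile normalization, 0.13 without the uneven arrays and 0.50 with no filter.

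Interferon response genes had 19 of 31 members higher and a median of 0.12, or -0.18 without the uneven arrays. Ifitm3, a membrane protein that blocks virus entry, read 10016, 10792 and 9671 in wild-type and 17637, 18149 and 11398 in Nras samples, a log2 difference of 0.60 ± 0.16. The groups did not overlap, and the difference was 0.03 with quantile normalization. Ifit3 read 724, 50.5 and 412 against 2083, 951 and 780, a log2 difference of 2.23 ± 1.13. It was 1.08 without wild-type GFPhigh replicate 2 and 0.51 without the uneven arrays. Adhesion genes had 14 of 28 higher and a median of 0.06. Itgb7, an integrin beta chain, read 741, 298 and 764 against 2165, 2743 and 1723, a log2 difference of 1.97 ± 0.68. All 3 Nras samples were well above the highest wild-type sample, and the difference was 1.20 without the uneven arrays. Cd47, the signal against phagocytosis, differed by 0.45 ± 0.16, or by -0.01 with quantile normalization, and the integrin Itga6 by -0.82 ± 0.32.

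The same contrast in GFP- HSCs, between other samples of the same fit, also called no gene at an adjusted p under 0.05 (limma, smallest adjusted p 0.262) and gave 530 genes, 4.39%, at an unadjusted p under 0.05. Of the 383 higher genes of the GFPhigh contrast, 251 or 65.5% were above 0 in GFP- cells too, beside 44.5% of all genes that were above 0 in GFPhigh cells. For the 619 lower genes the share was 60.7%, beside 62.7%. The brightest bin of genes was above 0 in both populations, with medians of 0.15 and 0.10. Of the 12 higher genes named, 11 were above 0 in GFP- cells, where 40.6% of all genes were, and of the 12 lower genes 4 were below 0.

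The test of whether the Nras effect differed between GFPhigh and GFP- cells called no gene (limma interaction term, smallest adjusted p 0.274), with 566 genes, 4.68%, at an unadjusted p under 0.05. Usp27x had the smallest p: in GFP- cells it read 982, 326 and 256 in wild-type and 956, 1838 and 1338 in Nras samples, a log2 difference of 1.61 ± 0.70 against -4.80 in GFPhigh cells. Dnpep, an aspartyl aminopeptidase, read 4117, 5875 and 2520 against 1042, 1259 and 2031 in GFPhigh cells, a log2 difference of -1.51 ± 0.40. It read 2821, 2512 and 1993 against 10287, 6565 and 4660 in GFP- cells, a log2 difference of 1.49 ± 0.40. Wild-type and Nras samples of Dnpep did not overlap in either population, and lay in opposite order. The 5 genes named here were chosen by smallest interaction p, which favours opposite order, so that order is not a result about Dnpep. Without the uneven arrays its GFPhigh difference was -0.67. Fancb, of the Fanconi anaemia core complex, differed by -5.75 ± 1.21 and 2.03 ± 1.21, with Nras GFPhigh samples at 3.7, 3.0 and 27.7, all below their array medians. Its GFPhigh difference was -2.17 with 100 signal units added, -2.67 without the uneven arrays and 0.04 on its second probe set. Sparc went the other way, above 0 in GFPhigh cells and by -1.82 in GFP- cells. For Cd177, the fifth of these genes, all 6 GFP- samples lay below their array medians, so no direction is read there. The adjusted p of these 5 interactions ran from 0.274 for Usp27x to 0.956, and without wild-type GFPhigh replicate 2 limma called 1 gene, an unnamed Riken transcript.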

How the data were processed

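Total RNA of sorted HSCs was measured on Affymetrix arrays, 1 for each of 12 samples in 4 groups of 3. The deposited values are intensity, in linear MAS5 signal units, per the submitters' processing notes, and the version of MAS5 is not given in the sources used here. Replicates were not pooled. The number of arrays limits the precision. Whether replicates are separate mice is not given, and p-values measure the spread between these samples.

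Of 45101 probe sets, 64 were controls, 34945 had 1 gene symbol, 932 several and 9160 none, and only the second kind was used. Signals were taken to log2, with 3 zeros set to 0.1. For each of 18193 genes the probe set with the highest mean on the log2 scale was kept, and 12083 genes above the array median in at least 3 arrays were tested. A limma model (lmFit, contrasts.fit, eBayes with an intensity trend) with 1 mean per group was fitted over all 12 arrays. The threshold was an adjusted p of 0.05 (Benjamini-Hochberg over all genes tested), and SE is limma's moderated standard error. The fit was tested on simulated data with 200 changed genes. The simulated noise of a gene had the same spread on all 12 arrays, so that test does not cover uneven arrays.

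Named genes were the 12 higher and 12 lower of smallest unadjusted p whose groups do not overlap and whose higher group has a signal above 817.8, from each list up to 4 of its smallest p, genes set by name, and the 5 of smallest interaction p. One unnamed symbol was passed over. The 35 lists hold 966 entries, 750 of them tested, and are described by counts and medians only. Members, lists and tests were chosen with earlier results of these data known. Upstream sequences are from RefSeq's table. Alternatives were array weights, only the groups compared, quantile normalization, median centring, other filters and probe set rules, pseudocounts of 100 and 15.5, a replicate block, a term for replicate 3, only replicates 1 and 2, no uneven arrays (weight under 0.6), each array left out, no intensity trend and an adjusted p under 0.1. The fits used limma 3.58.1 and statmod 1.5.0 under R 4.3.3, and figures used matplotlib 3.10.9 with pandas 2.3.3 and numpy 2.4.6 under Python 3.11.15.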

Additional observations from a re-analysis of the deposited data

How the results depend on the processing

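The number of arrays, 3 in a group, limits the precision, and the median SE of a log2 difference was 0.88. No gene passed in the GFPhigh contrast in 21 of its 23 alternatives. Leaving out each array in turn gave 0 to 17 calls in the GFPhigh contrast, 0 to 8 in the GFP- contrast and 0 to 1 for their difference; the 17, 8 and 1 were reached without Nras GFPhigh replicate 3, Nras GFP- replicate 3 and wild-type GFPhigh replicate 2. Fewer samples were then fitted, and the cause was not tested. The share of higher genes among those at an unadjusted p under 0.05 was 38.2%, and 55.3% with no filter, 28% with the mean over probe sets and 26% without the uneven arrays. Median centring moved the median difference of all genes from -0.09 to 0.03 in GFPhigh cells and from -0.17 to 0.47 in GFP- cells, where the share of higher genes went from 22.1% to 64.2%.

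A fit with the replicate block called 0 genes in the GFPhigh contrast, with a smallest adjusted p of 0.341 (limma), 1067 genes at an unadjusted p under 0.05 and 0 calls in the other two comparisons. The labels do not say whether the numbers pair the samples. Same-numbered wild-type and Nras GFPhigh samples had correlations of 0.0255, 0.0297 and 0.144 in their deviations from the group means. Those with different numbers had correlations from -0.0706 to 0.0315. With 3 samples a group these values cannot decide whether the samples are paired.

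None of the genes named had passed the threshold. Of 2348 alternative values of the 114 genes read in this way, 52 had the opposite sign, and the cause was not tested. With quantile normalization these were Procr at -0.045, Mecom at -0.13, Pcna at -0.002, Lmo2 at -0.14, Angpt1 at -0.024, Atp5a1 at -0.074, Rps14 at -0.084, Cd47 at -0.012 and Npm1 at -0.093. With the mean over probe sets they were Spred1 at -0.36, Etv5 at 0.41, Ccnd1 at -0.043, Pim1 at 0.63, Mecom at -0.73, Pnn at -0.59, Irf2bp2 at -0.15, Srsf1 at -0.031 and Rbm39 at -0.13. Without the uneven arrays they were Rassf1 at 0.29, Etv5 at 0.19, Ccnd1 at -0.059, Mki67 at -0.40, Cdkn1c at 0.76, Lyz2 at -0.13, Slc4a1 at -1.49 and Il2ra at -0.52. Without shared probe sets, which match several transcripts, they were Slamf1 at 1.96, Grina at -0.11, Srsf1 at -1.02, Arhgef2 at 1.06 and Cycs at -0.94. Median centring turned Pim1 to 0.078, Gfi1 to 0.067 and Myc to 0.052, and array weights Cdkn1c to 0.25. With only replicates 1 and 2 Spred1 was -0.051, Pim1 0.26 and Gfi1 0.11. Leaving out single arrays gave ranges of -0.11 to 0.78 for Spred1, -1.63 to 0.034 for Etv5, -0.053 to 0.43 for Ccnd1, -0.42 to 0.40 for Pim1, -0.53 to 0.18 for Cdkn1c, -0.18 to 0.29 for Kit, -0.12 to 0.53 for Procr, -0.023 to 0.34 for Mecom, -0.25 to 0.19 for Gfi1 and -0.18 to 0.050 for Myc. Of 734 alternative medians of lists, 72 moved by more than 1 SD between samples of a group.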

Other observations

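Gene groups outside the signalling and lineage lists were also read in the GFPhigh comparison, and no gene of theirs passed an adjusted p under 0.05 (limma, Benjamini-Hochberg). Imprinted genes, expressed from 1 parental copy and many of them growth regulators, had 11 of 22 members higher and a median log2 difference of 0.07. Peg10 read 77.3, 4.3 and 358 in wild-type and 533, 602 and 313 in Nras samples. Hox cluster genes had 9 of 13 higher and a median of 0.32, and that list stood at 1.28 above the mean of the 6 arrays in Nras replicate 1. Hoxb7 read 288, 36.2 and 559 against 2625, 779 and 616, a log2 difference of 2.59 ± 1.25, and every Nras sample was above every wild-type sample. It was 1.43 without wild-type GFPhigh replicate 2 and 0.62 without the uneven arrays. Genes of TGF-beta signalling and ID factors had 17 of 26 higher and a median of 0.14. Ltbp1, which binds latent TGF-beta, read 53.6, 50.9 and 36.1 against 182, 220 and 172, a log2 difference of 2.04 ± 0.77 with groups apart.

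Regulators of chromatin and DNA methylation read lower in 21 of 32 cases, with a median of -0.30. The maintenance methyltransferase Dnmt1 was among those reading higher, at 4117, 3811 and 3590 in wild-type and 5011, 6016 and 4404 in Nras samples. Targets of p53 had 13 of 21 higher and a median of 0.22, the BCL2 family 8 of 13 and 0.27, and MHC class II genes and chaperones 3 of 9 and -0.44. Of the p53 targets 0 read higher and 2 lower at an unadjusted p under 0.05. The median of that list was -0.02 with array weights.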
